A study of Mus musculus with 4 samples.

Results

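The regions described here are the macroH2A islands of mouse chromosomes 4 and 8 in C2C12 cells, before and after muscle differentiation. They were chosen by covered length: these are the only autosomes on which the islands summed to less sequence at day 5 than at day 0, and all their islands are taken. The rule takes in 3314 of 30016 islands (11.04%) at day 0 and 2968 of 29473 (10.1%) at day 5. Chromosome 4 carried 1730 islands at day 0 and 1550 at day 5, and chromosome 8 carried 1584 and 1418. An island is a stretch of enriched sequence joined across short gaps by the authors' island caller, and it comes with a count of the ChIP reads inside it.

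Chromatin immunoprecipitation with sequencing (ChIP-seq) was done with an antibody against macroH2A, and the labels do not say which macroH2A isoforms it binds. The cells were C2C12, an established line of mouse muscle precursors, with no genetic change or drug named in the labels. The day 0 library came from myoblasts at the start of differentiation medium and the day 5 library from myotubes after 5 days in that medium, which holds horse serum in place of fetal bovine serum. The series also lists an input sample for each day, neither of which entered these comparisons, leaving 2 of 4 samples. With 1 library per day, differentiation and the difference between 2 libraries cannot be told apart. Both chromosomes were picked for a day 5 to day 0 ratio below 1, so all comparisons of days on them are descriptions and no p-value is given.

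MacroH2A is a variant of histone H2A with a large globular macrodomain attached to its histone fold. It is best known for broad domains over repressed chromatin, including the inactive X chromosome, and it also lies over some active and signal-responsive genes. The isoform macroH2A1.1, which the study's title names, can bind ADP-ribose through its macrodomain, a link to the NAD+ metabolism of the nucleus. Muscle precursors that differentiate leave the cell cycle, fuse and start the contractile gene programme.

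The day 0 list held 24365482 reads in islands and the day 5 list 29619426, which are not sequencing depths. The median island on chromosome 4 held 491 reads at day 0 and 556.5 at day 5, a relative counting error of 4.51% and 4.24%. On chromosome 8 the medians were 507 and 586 reads. All intervals are at 95%, exact, and cover counting error only. Positions are in mm9, and no gene names are attached to them because the annotation at hand belongs to another build.

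Islands of chromosome 4 covered 17.2 Mb in myoblasts and 15.7 Mb in myotubes, a ratio of 0.912. Those of chromosome 8 covered 16.7 Mb and 16.1 Mb, a ratio of 0.965. Over the other 17 autosomes together the ratio was 1.09. Chromosome 8 lay just inside the rule, and chromosome 10, at 1.02, was the nearest autosome outside it. The share of the span covered went from 11.1% to 10.1% on chromosome 4 and from 12.7% to 12.3% on chromosome 8. An equal floor of 70 reads per kb on both lists turned these ratios to 1.21 and 1.30. With the day 5 floor multiplied by 1.14, the median fold in density where both lists have islands, they were 0.797 and 0.862. With this multiplied floor 12 of the 19 autosomes had a ratio below 1, so chromosomes 4 and 8 were then not the only ones. Relative to the other 17 autosomes, chromosome 4 stood at 0.838 as listed, 0.846 with the equal floor and 0.813 with the multiplied floor. The same 3 values for chromosome 8 were 0.887, 0.914 and 0.880.

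Read shares moved the same way as length. Of the autosomal island reads, 5.48% lay on chromosome 4 in myoblasts and 4.60% in myotubes. For chromosome 8 the shares were 5.33% and 4.74%. The resulting ratios of 0.838 and 0.888 were the lowest and second lowest of the 19 autosomes, and chromosome 10 followed at 0.937. Because island reads grow with island length, the read shares are no separate measure of the contraction.

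The first question was whether whole islands disappeared, or islands narrowed, or islands broke up. Whole islands made up the largest part of the loss in the lists as deposited. On chromosome 4, 592 day 0 islands met no day 5 island, which took away 3.85 Mb. Trimming of the outer edges of shared islands took away 2.40 Mb, and inner gaps in islands that split took away 0.856 Mb. Chromosome 8 lost 3.44 Mb in 522 whole islands, 2.12 Mb at edges and 0.767 Mb in inner gaps. Lost islands thus held 54.1% of the length lost on chromosome 4 and 54.4% on chromosome 8, against 50.8% on the other 17 autosomes. This split depends on the definition of a shared island: with 50% of an island's length required to be covered, lost islands held 77.1% and 75.9%. With islands merged across 5 kb, they held 40.4% and 42.6%.

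Gains ran against these losses on both chromosomes. Chromosome 4 gained 2.72 Mb in 439 new islands, 2.03 Mb at widened edges and 0.834 Mb where gaps were bridged. Chromosome 8 gained 2.80 Mb in 413 new islands, 2.04 Mb at edges and 0.909 Mb in bridged gaps. New minus lost islands left -1.126 Mb on chromosome 4 and -0.641 Mb on chromosome 8. Edges left -0.368 Mb and -0.0786 Mb. Inner gaps left -0.0216 Mb on chromosome 4, whereas on chromosome 8 bridging exceeded splitting by 0.142 Mb. The net differences, -1.515 Mb on chromosome 4 and -0.578 Mb on chromosome 8, had whole islands as their largest component on both chromosomes.

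Set beside the sum of the other 17 autosomes, both chromosomes had more loss and less gain. Chromosome 4 lost 41.3% of its day 0 covered length and gained 32.5%. The other 17 autosomes together lost 31.7% and gained 40.4%. Chromosome 8 lost 38.0% and gained 34.6%. Chromosome 4 minus the other 17 autosomes was thus 9.69 percentage points for loss and -7.91 points for gain. For chromosome 8 the differences were 6.37 and -5.88 points. Of the 9.69 points, 6.31 came from whole islands, 2.55 from edges and 0.838 from inner gaps. Neither chromosome was extreme in loss alone. Chromosome 7 lost 49.0% and chromosome 9 lost 46.0%, both more than chromosome 4, and the loss of chromosome 8 ranked only 9 of 19 from the top. In gain, chromosome 4 ranked 17 and chromosome 8 ranked 15. Sparse chromosome 7 also gained 67.9%, so its ratio lay above 1.

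**Figure D1:**
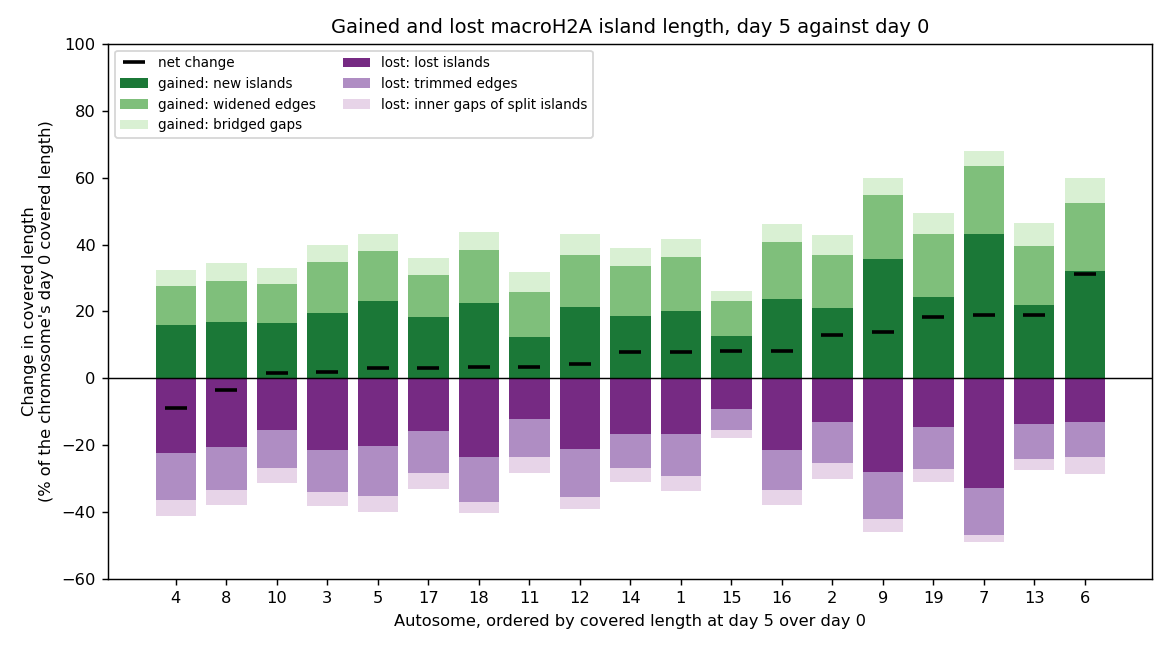
Gained and lost island length on each autosome as a percentage of its day 0 covered length, stacked by kind, with the net change as a black dash. Autosomes are ordered by covered length at day 5 over day 0, and chromosomes 4 and 8, at the left, are the only ones whose dash lies below 0 (0.912 and 0.965 as ratios), which an equal floor of 70 reads per kb turns to 1.21 and 1.30.

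Island numbers followed from the same events. On chromosome 4, 592 lost and 439 new islands, 244 extra pieces from splitting and 271 islands absorbed by joining gave a net difference of -180. On chromosome 8, 522 lost, 413 new, 224 extra pieces and 281 absorbed islands gave -166. These were the 2 largest falls in island number among the 19 autosomes, and chromosome 11, with -102, came next.

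The lost share of day 0 islands was 34.2% (32.0 to 36.5%) on chromosome 4 and 33.0% (30.6 to 35.3%) on chromosome 8. Over all autosomes it was 27.5%, and over the other 17 it was 26.7% (26.2 to 27.2%). Chromosomes 7 and 9, at 39.5% and 35.9%, were above chromosome 4. In the opposite direction, 28.3% of day 5 islands on chromosome 4 (26.1 to 30.6%) and 29.1% on chromosome 8 (26.8 to 31.6%) met no day 0 island, against 31.3% over all autosomes. Both chromosomes are among the counts behind the all-autosome percentages. Adjacent islands are not independent, so the true uncertainty is wider than these intervals.

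Splitting and joining were near the autosomal level. Of day 0 islands, 200 on chromosome 4 (11.6%) and 172 on chromosome 8 (10.9%) met 2 or more day 5 islands, where all autosomes had 11.4%. Of day 5 islands, 222 (14.3%) and 216 (15.2%) met 2 or more day 0 islands, where all autosomes had 14.1%. Islands that split were wide, with medians of 19.2 kb and 18.9 kb. Their uncovered inner length had a median of 2.4 kb on both chromosomes, which is 4 of the 600 bp steps on which islands are drawn.

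Narrowing touched about as many islands as it left alone. Among shared day 0 islands, 570 of 1138 on chromosome 4 (50.1%) and 528 of 1062 on chromosome 8 (49.7%) lost length at an outer edge, against 46.3% on the other 17 autosomes. The median loss per narrowed island was 3.0 kb on chromosome 4 and 2.4 kb on chromosome 8. On chromosome 4 trimmed length was similar on both sides, at 1.17 Mb on the lower-coordinate side and 1.23 Mb on the other. On chromosome 8 it was 0.956 Mb and 1.17 Mb, less even than the 15.75 Mb and 15.79 Mb of the other 17 autosomes. Day 5 islands covered 456 and 434 of the shared islands in full.

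Lost islands were narrower than shared ones and lay lower in the density range. Their median width was 6.0 kb on both chromosomes, where shared day 0 islands had 8.4 kb. Median density was 69.7 reads per kb in lost and 74.4 in shared islands of chromosome 4, and 69.1 and 74.4 on chromosome 8. The other autosomes had 69.7 and 74.4. The widest lost island spanned 27.0 kb on chromosome 4 and 25.8 kb on chromosome 8, and 2 and 6 lost islands were over 20 kb. No island over 27.0 kb was lost whole on either chromosome.

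The lost share was also higher among islands of similar width. Up to 5 kb, 47.0% of chromosome 4 islands and 47.1% of chromosome 8 islands were lost, against 39.1% on the other 17 autosomes. From 5 to 10 kb the shares were 37.8%, 38.0% and 31.8%. From 10 to 20 kb they were 23.6% (19.4 to 28.1%), 18.8% (14.9 to 23.3%) and 14.2% (13.3 to 15.1%). Applying the other autosomes' share in each width class gave 27.5% for chromosome 4 and 27.0% for chromosome 8, below the 34.2% and 33.0% found. Both chromosomes were chosen for a fall in covered length, so a lost share above the pooled rest is no separate result. Over all widths chromosomes 7, 9 and 18, at 39.5%, 35.9% and 33.4%, lost a larger share than chromosome 8. Single autosomes were not compared within classes. Over 50 kb, none of 19 islands on chromosome 4 and none of 34 on chromosome 8 was lost, with upper limits of 17.6% and 10.3%.

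**Figure D2:**
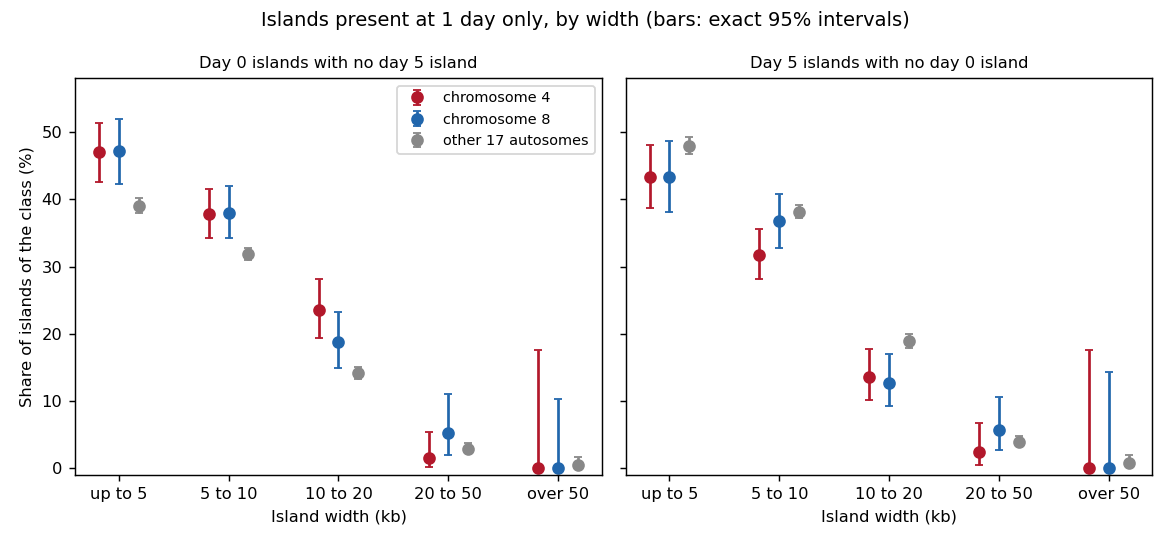
Share of islands present at 1 day only, by island width, for chromosomes 4 and 8 and the other 17 autosomes, with exact 95% intervals. In the left panel chromosomes 4 and 8 lie above the other autosomes in the 3 classes up to 20 kb (for example 47.0% and 47.1% against 39.1% up to 5 kb), and in the right panel both points lie below the others in those classes.

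The same held within classes of read density. Day 0 islands of the autosomes were ordered by density and cut into 4 classes of equal number. In the least dense class, from 49.5 to 67.8 reads per kb, 53.5% of chromosome 4 islands and 52.6% of chromosome 8 islands were lost, against 42.2% on the other 17 autosomes. In the densest class, from 79.98 reads per kb upward, the shares were 21.1%, 20.0% and 15.6%. Losses thus grew rarer with density on both chromosomes, and both stood above the other autosomes in both classes. The median island density of all islands gave no such contrast, at 72.9 reads per kb on chromosome 4, 72.7 on chromosome 8 and 73.1 on the other 17 autosomes at day 0.

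Wide islands differed between the chromosomes. Islands over 50 kb numbered 19 at both days on chromosome 4. On chromosome 8 they went from 34 to 24, while islands from 20 to 50 kb went from 115 to 158. On the other 17 autosomes together islands over 50 kb went from 435 to 511. Among them the number fell on chromosomes 1, 5, 9 and 10, from 55 to 48 on chromosome 10, and rose on each of the rest. Of the day 0 length in islands over 50 kb, day 5 islands covered 84.1% on chromosome 4 and 82.9% on chromosome 8, against 87.8% elsewhere. The uncovered part was mostly inner gaps, at 11.3% and 11.1% of length, against 7.004% on the other 17 autosomes. In islands from 20 to 50 kb edges took more, with 18.4% of length trimmed on chromosome 4 and 14.3% on chromosome 8, against 10.3%.

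The second question was where along the chromosomes the difference lay. In windows of 1 Mb, 67 of 121 windows with an island on chromosome 4 (55.4%) and 58 of 108 on chromosome 8 (53.7%) had less covered length at day 5, against 40.3% over all autosomes. A window was called contracted when it fell at least 1.5 times, among those with at least 50 kb covered on 1 of the days. Chromosome 4 had 23 contracted windows of 83 (27.7%) and chromosome 8 had 19 of 87 (21.8%), against 12.2% over all autosomes. With the equal floor of 70 reads per kb, 8 of 74 and 7 of 79 windows were contracted. When a fall of 2 times was required, 9 of 83 and 9 of 87 were. Shares over all autosomes were not computed for these 2 settings. By number of contracted windows, chromosomes 4 and 8 ranked 19 and 18 of 19 from the lowest with that floor. With a fall of 2 times both ranked 18. Expanded windows, which rose at least 1.5 times, numbered 12 on each chromosome (14.5% and 13.8%), against 23.1% over all autosomes. On chromosome 4, 13 of the 67 falling windows (19.4%) made up 50% of the summed fall, and on chromosome 8, 12 of the 58 (20.7%). Over all autosomes together this share was 16.7%, and single autosomes ranged from 13.3% to 23.5%, so both chromosomes lay within the usual range.

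**Figure D3:**
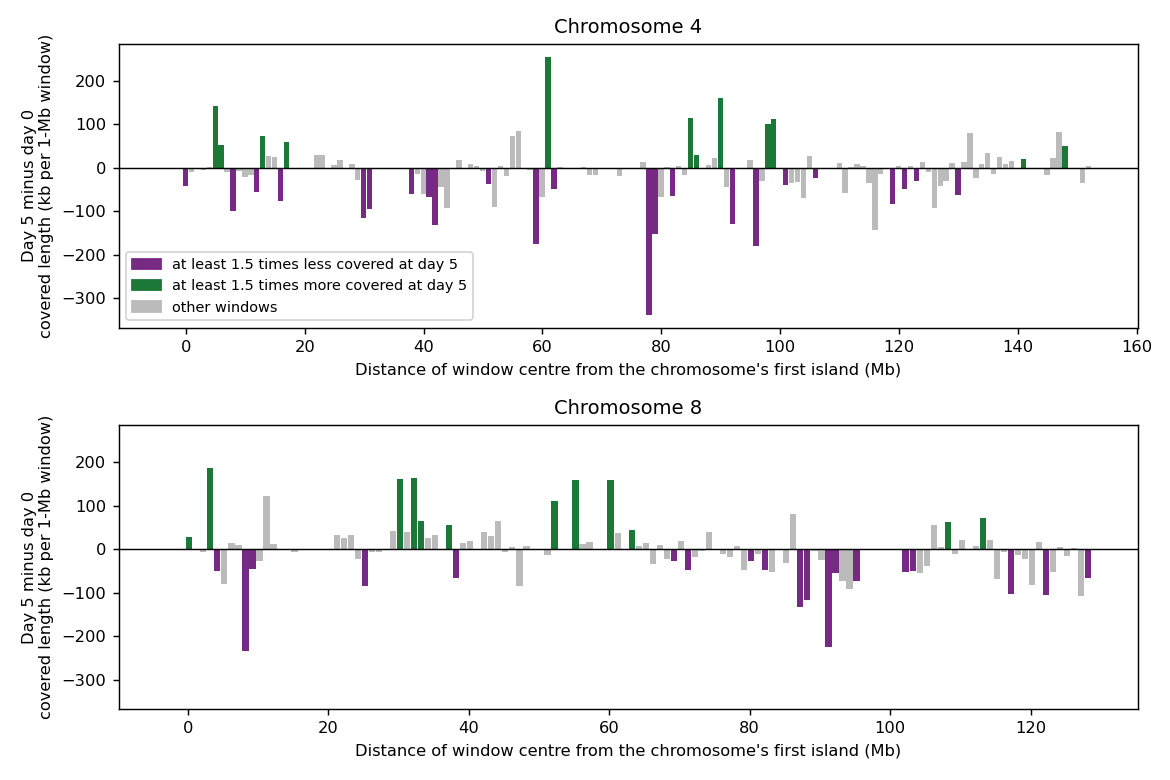
Covered length at day 5 minus day 0 in each 1-Mb window of chromosomes 4 and 8, against the distance from the chromosome's first island. Purple windows (23 and 19) were at least 1.5 times less covered at day 5 and green windows (12 and 12) at least 1.5 times more. Under an equal floor of 70 reads per kb, 8 of 74 and 7 of 79 compared windows fell at least 1.5 times. The deepest bar, on chromosome 4, stands at -337.2 kb.

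The largest fall on chromosome 4 was in the window from 81 to 82 Mb, with 487 kb covered in myoblasts and 150.0 kb in myotubes. Here 20 of 33 day 0 islands were lost (156 kb), edges gave up 127 kb and inner gaps 65.4 kb, and 1 new island appeared. Over the whole of chromosome 4, 34.2% of day 0 islands were lost, against 27.5% over all autosomes. Windows named for the largest falls were picked by those falls, so their lost shares are no separate result. The adjoining window up to 83 Mb had 347 kb and 196 kb. Both belong to a run of 3 falling windows from 81 to 84 Mb with 1187 kb covered in myoblasts and 632 kb in myotubes. Ranked by summed fall, it was second among 84 runs of at least 3 adjacent falling windows on the 19 autosomes.

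The other 3 of the 5 largest falls on chromosome 4 were in separate places. The window starting at 99 Mb had 290.2 kb covered in myoblasts and 111 kb in myotubes, with 17 of 32 islands lost. In the window starting at 62 Mb, coverage of 405 kb became 230.4 kb, and trimmed edges (109 kb) exceeded lost islands (67.2 kb). The window starting at 119 Mb had 506 kb and 363 kb, a fall of less than 1.5 times. With the equal floor the differences at 99 and 119 Mb were -66.6 kb and -85.2 kb, and with the multiplied floor that at 99 Mb was -100.2 kb. A run of 8 windows between 40 and 48 Mb dropped to 776 kb out of 1244 kb and lost 68 of 132 islands (51.5%). This run was picked for its fall, so its lost share is no separate result. Its loss was mostly in whole islands (447 kb) and less by trimming (192 kb). The run between 61 and 64 Mb had 996 kb and then 749.8 kb. There 14 of 61 islands were lost (23.0%), a share below that of the whole chromosome (34.2%) and of all autosomes (27.5%).

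Chromosome 4 also had windows that rose. Directly beyond the run that ends at 64 Mb, 1 window grew to 588 kb covered where myoblasts had 332 kb, with 17 new islands. The window starting at 93 Mb had 109.8 kb and then 271 kb, and the one starting at 8 Mb had 205 kb and then 349 kb. With the multiplied floor these 2 rises were 50.4 kb and 32.4 kb. No day 0 island of that last window was lost. Falling and rising windows thus lay next to each other on this chromosome.

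On chromosome 8 the window starting at 11 Mb fell most, with 473 kb covered in myoblasts and 239 kb in myotubes. Trimmed edges gave up 116 kb there, lost islands 76.2 kb and inner gaps 66.0 kb. Next was the window starting at 94 Mb, with 589 kb and 365 kb, 12 of 26 islands lost and 1 new. Over the whole chromosome 33.0% of day 0 islands were lost, and over all autosomes 27.5%. These windows too were picked by their fall. The windows starting at 90 and 91 Mb had 298 kb and 217 kb in myoblasts but 164 kb and 101 kb in myotubes, and no new island was centred in the latter. The fifth, starting at 130 Mb, had 516 kb and 407 kb. With the equal floor of 70 reads per kb the differences of the windows starting at 90 and 130 Mb shrank to -22.2 kb and -4.8 kb, and with the multiplied floor that at 90 Mb was -84.0 kb.

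All 9 windows of chromosome 8 from 90 to 99 Mb fell. Together they held 2229.6 kb of islands in myoblasts and 1438 kb in myotubes, a ratio of 0.645. Of their 157 day 0 islands, 62 (39.5%) were lost, against 33.0% over the whole chromosome and 27.5% over all autosomes. By summed fall this run was first among the 84 runs. Whole islands accounted for 508 kb of the length lost in it, trimmed edges for 337 kb and inner gaps for 181 kb. A further run between 11 and 14 Mb had 813 kb and then 506 kb, and one between 118 and 124 Mb had 1247 kb and then 947 kb. In the latter, 48 of 121 islands were lost (39.7%). All these runs were picked for their fall, so their lost shares are no separate result.

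The 3 largest rises on chromosome 8 were on the low-coordinate side. The window starting at 6 Mb had 52.8 kb covered in myoblasts and 239 kb in myotubes, with 19 new islands beside 8 islands at day 0. In the window starting at 35 Mb, 300.0 kb became 463 kb, more by widened edges (106 kb) than by new islands (58.2 kb). The window starting at 33 Mb had 119 kb and then 281 kb, with 22 new islands. The rise at 35 Mb was 280.2 kb with the equal floor and 104 kb with the multiplied floor.

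**Figure D4:**
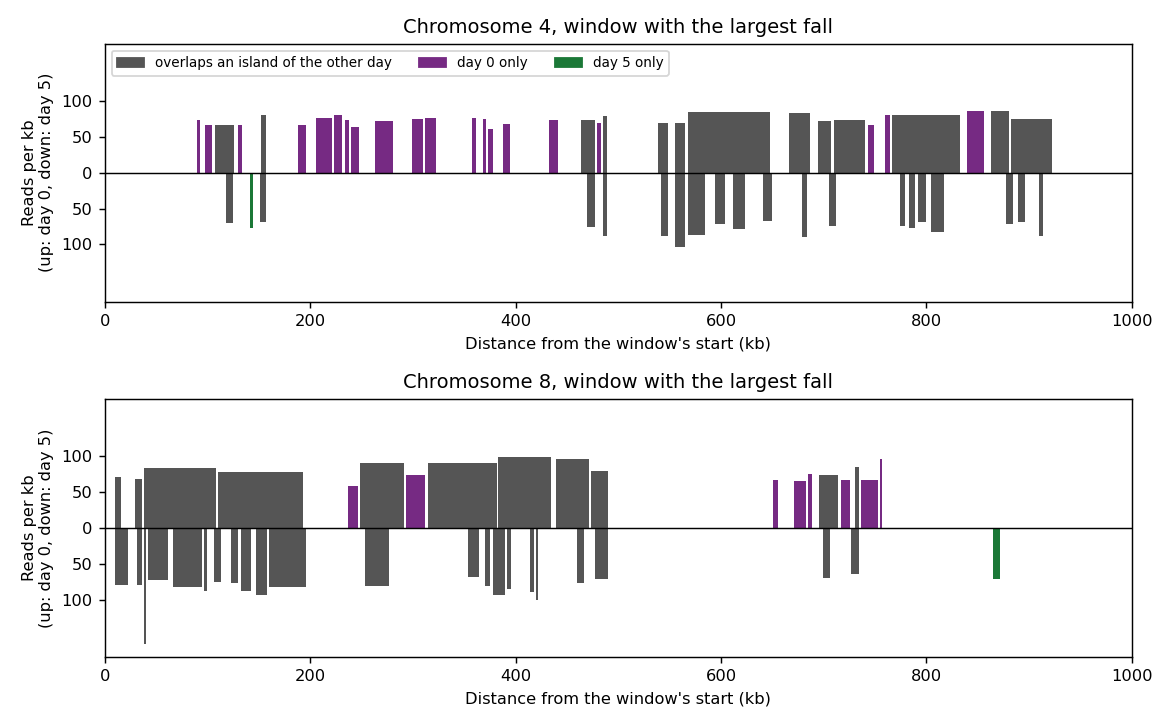
Islands in the window with the largest fall on chromosome 4 (top) and chromosome 8 (bottom), drawn upward at day 0 and downward at day 5, with island width on the x axis in kb from the window's start and reads per kb as height. In the chromosome 4 window 20 of 33 day 0 islands (purple) have no day 5 island, where the share over the whole chromosome was 34.2%. Wide grey islands at day 0 face several narrow ones at day 5 in both windows.

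In the lists as deposited, chromosome 8 had a low-coordinate side that was more covered at day 5 and a high-coordinate side that was less covered, at 0.833 of its day 0 length (1.06 with the equal floor of 70 reads per kb). The midpoint of its span from first to last island, at 67243801, was used to divide it, a choice made after the windows had been seen. Before the midpoint 6.96 Mb were covered in myoblasts and 8.002 Mb in myotubes, a ratio of 1.15. After it 9.69 Mb and 8.08 Mb were covered. The summed difference from the chromosome start reached its highest value, 1.07 Mb, at 70.8 Mb and then fell by 1.65 Mb to the chromosome end. After the midpoint 34.5% of day 0 islands were lost and 154 of 726 day 5 islands (21.2%) were new. Before it 30.9% were lost and 259 of 692 (37.4%) were new. Over all autosomes 27.5% were lost and 31.3% were new. The sides thus differed more in their share of new islands than in their share of lost ones.

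The ratio after the midpoint of chromosome 8 was 0.725 times that before it, the lowest such value of the 19 autosomes. Chromosome 12, at 0.852, had the next lowest value, and chromosome 16, at 1.26, was divided in the opposite direction. Among 38 such chromosome sides, that of chromosome 8 after the midpoint had the lowest ratio. Chromosome 8 was chosen by the same ratio over its whole length, so this rank is not independent of the choice. With the equal floor the ratio before the midpoint was 1.70. Relative to the other 17 autosomes, the side after the midpoint stood at 0.766 as listed and 0.744 with that floor.

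Chromosome 4 showed no such division. Its ratio was 0.911 before the midpoint of its span, at 79362601, and 0.913 after it. Of the 38 sides, these had the lowest ratios after that of chromosome 8, and the first side of chromosome 17 followed at 0.959. Chromosome 4 was chosen by the same ratio, and with sides this alike their low ranks follow from that choice. The summed difference fell from 0.139 Mb at 9.37 Mb to its lowest value of -1.81 Mb at 134.5 Mb, and windows beyond that point added back to the final -1.515 Mb.

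**Figure D5:**
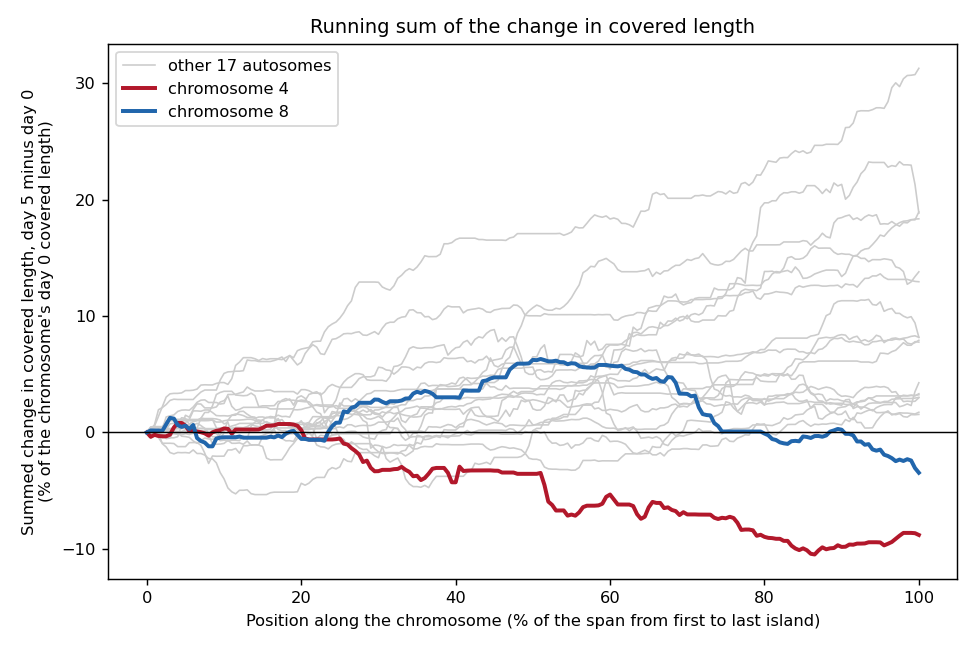
Running sum of day 5 minus day 0 covered length along each autosome, as a percentage of its day 0 covered length, against the position between first and last island. Chromosome 8 (blue) rises to its highest point near the middle, at 1.07 Mb, and then declines to -0.578 Mb, whereas chromosome 4 (red) declines over most of its length to -1.515 Mb; with an equal floor of 70 reads per kb both chromosomes end above their day 0 length (ratios of 1.21 and 1.30).

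Single islands give the scale of these differences. Of the 5 lost islands of chromosome 4 with most reads, the first lay from 11771401 to 11798400 and held 1982 reads (1896 to 2071) at 73.4 reads per kb over 27.0 kb. A second lay near it, from 11655001 to 11675400, with 1399 reads. Another 2 lay in one neighbourhood, from 119788801 to 119805600 with 1776 reads and from 119137201 to 119155800 with 1350 reads. The former was dense, at 106 reads per kb (100.9 to 110.7). The remaining one, from 81839401 to 81856200, held 1462 reads inside the window with the largest fall.

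On chromosome 8 the lost island with most reads lay from 125660401 to 125686200 and held 1813 reads (1730.5 to 1898) over 25.8 kb. Others lay from 27621001 to 27644400 with 1750 reads and from 10054801 to 10073400 with 1599 reads. The last 2 lay in the falling run, from 94215001 to 94237800 with 1589 reads and from 91326001 to 91348800 with 1544 reads. Densities of these 5 ranged from 67.7 to 86.0 reads per kb.

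New islands with most reads were of similar size. On chromosome 4 they lay from 46070401 to 46094400 with 1982 reads, and from 58300801 to 58326000 and from 58336801 to 58359600 with 1861 and 1828 reads. The first of these lay inside the falling run from 40 to 48 Mb. On chromosome 8 they lay from 33249601 to 33276000 with 2686 reads at 102 reads per kb, from 15053401 to 15080400 with 2096 reads and from 6337201 to 6359400 with 1956 reads. All 3 were before the midpoint of chromosome 8.

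Narrowing was most pronounced in a few shared islands. The chromosome 4 island from 62865001 to 62911200 spanned 46.2 kb, and day 5 islands covered 16.9% of it after 22.2 kb were trimmed on one side and 16.2 kb on the other. From 99189601 to 99229800, 11.9% of 40.2 kb was covered at day 5, and from 81709801 to 81740400 it was 5.88% of 30.6 kb. On chromosome 8, 15.5% of the 77.4 kb island from 125203201 to 125280600 was covered at day 5, in 3 pieces. Day 0 density in it was 104 reads per kb, against 81.2 in the day 5 islands that met it. The 67.2 kb island from 11314201 to 11381400 lost 39.6 kb at an edge and 8.4 kb in inner gaps, which left 28.6% of it covered. Edges alone left 20.8% of the 31.8 kb island from 11439601 to 11471400.

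Splitting was clearest in the 80.4 kb island of chromosome 4 from 81567601 to 81648000, which met 4 day 5 islands with 35.4 kb of gaps between them. The 68.4 kb island from 55930801 to 55999200 met 5, with gaps of 24.6 kb, and the 27.6 kb island from 132523801 to 132551400 met 3, with gaps of 20.4 kb. On chromosome 8 the 103 kb island from 94365601 to 94468200 met 5 day 5 islands and had 33.0 kb of gaps. It was among the 3 widest day 0 islands of the chromosome. The island from 125203201 to 125280600, named above, had gaps of 31.2 kb, and the 51.6 kb island from 11383201 to 11434800 met 4 day 5 islands with gaps of 22.2 kb.

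The widest domains stayed largely covered. On chromosome 4 the widest day 0 island, from 47186401 to 47341800, spanned 155 kb with 16045 reads, and day 5 islands covered 89.6% of it although its surroundings fell. The second, from 114010201 to 114131400, and the third, from 56093401 to 56176800, were covered over 92.6% and 94.2%. On chromosome 8 the islands from 123704401 to 123838800 (134 kb) and from 122496001 to 122601000 (105 kb) were covered over 91.1% and 97.1%, against 65.5% for the split island from 94365601 to 94468200.

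The widest day 5 island was wider than the widest day 0 island on both chromosomes, by little on chromosome 4 (157.8 kb against 155.4 kb). On chromosome 8 the island from 129156601 to 129333000 spanned 176 kb and met 5 day 0 islands. The next, from 27809401 to 27955200, spanned 146 kb and met 6. On chromosome 4 the island from 56099401 to 56257200 spanned 158 kb, and that from 135109801 to 135257400 spanned 148 kb and met 6 day 0 islands. Most of this length was covered at day 0 already. Day 0 islands covered 94.2% and 88.5% of the named chromosome 8 islands, and 95.1% and 84.1% of those on chromosome 4. On chromosome 8 islands over 50 kb still went from 34 to 24.

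Read density was lower at day 5, relative to the autosomes, in the windows that contracted. At grid positions inside islands of both lists, the log2 fold in density from myoblasts to myotubes had an autosomal median of 0.19, and values here are relative to it. Chromosome 4 as a whole stood at -0.026 and chromosome 8 at -0.010, while the other autosomes ranged from -0.027 to 0.026. Among contracted windows with 50 kb or more in islands of both lists, the median was -0.080 on chromosome 4, with 11 of 12 below 0, and -0.13 on chromosome 8, with 7 of 7 below 0. On the other 17 autosomes it was -0.086, with 60 of 68 below 0. Of all such windows, contracted or not, 40 of 61 on chromosome 4 and 27 of 55 on chromosome 8 were below 0. Elsewhere it was 484 of 945. Among expanded windows the counts below 0 were 3 of 7, 0 of 4 and 35 of 136, in the same order. Less covered length and lower density thus went together in windows of all autosomes, and both measures come from the same 2 lists. The lowest value on these chromosomes was -0.39, in the chromosome 8 window starting at 91 Mb.

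The sides of chromosome 8 differed in density in the direction of their coverage. Before the midpoint the relative log2 ratio was 0.030 and after it -0.039. On chromosome 4 both sides stood at -0.026. Sides of other autosomes reached similar values. Before the midpoint, chromosome 6 stood at 0.052 and chromosome 17 at -0.039, the latter with a coverage ratio of 0.959. Chromosome 11 after its midpoint stood at -0.037 and chromosome 9 before its midpoint at -0.032, with coverage ratios of 1.008 and 1.093. Low density on a side thus did not always go with less coverage, and the densities are no separate result for the division of chromosome 8. Island densities do not resolve the positions inside an island, and input reads were not used, so the part of the DNA amount in these values was not tested.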

How the data were processed

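The authors deposited 1 list of islands per macroH2A library, with chromosome, start, end and a whole-number read count per island that carries no scaling the values show. Tools listed in the submitters' processing notes, without roles, are SICER 1.1, MACS 1.4.2, Bowtie2 2.2.6 and CASAVA 1.4, with the build mm9. Per the list names, islands were called at a false discovery rate of 0.01 with gaps up to 1200 bp and windows of 600 bp. Use of the input and treatment of duplicate reads are not given in the sources used here. All starts and widths fell on the 600 bp grid.

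An island was shared when at least 1 bp overlapped the other list. Uncovered length was divided into whole islands, outer edges and inner gaps between islands of the other day, and the same was done in reverse for gains. Length per 1-Mb window is exact, and its parts are by grid step. Lost shares have exact (Clopper-Pearson) intervals and read counts exact Poisson intervals. No gene annotation or sequence of mm9 was at hand, so genes were not placed and no sequence is printed. The chromosomes, rules and lists of named regions were chosen with earlier results of these data known. Named per chromosome were the 5 windows with the largest fall and 3 with the largest rise, 5 lost and 3 new islands with most reads, 3 with most trimmed edge, 3 with most inner gap, 3 widest per day, and up to 3 falling runs. The lowest relative density and the midpoint division were chosen after their values were seen. The division code was tested on 1730 simulated islands with known edits and returned all 6 parts. Software was matplotlib 3.10.9, SciPy 1.17.1, NumPy 2.4.6 and pandas 2.3.3 under Python 3.11.15.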

Additional observations from a re-analysis of the deposited data

How the results depend on the processing

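Of 52 recomputed values for the main comparisons, 20 stayed within their tolerance, 30 moved beyond it and 2 reversed. The tolerance was an interval from island numbers, or 1.5 times for window counts, and covers counting error only. The covered length ratios of chromosomes 4 and 8 reversed to 1.20577 and 1.30229 with an equal floor of 70 reads per kb. Day 0 islands are less dense, so that floor removes more of them by construction. They were 0.797 and 0.862 with the floor scaled at day 5, 0.843 and 0.893 at equal covered length, and 0.838 and 0.888 by share of island reads. Ratios of covered length below 1 were found on 12 autosomes with the scaled floor and on 11 at equal covered length, against 2 as listed. Chromosome 4 had the lowest ratio of the 19 autosomes in all these settings but the equal floor, where it was second lowest, and chromosome 8 the second lowest, but with that floor 3 autosomes were lower. The side of chromosome 8 after its midpoint reversed to 1.0607 with the equal floor, an alternative added after the data were seen. Lost islands on chromosomes 4 and 8 were 44.8% and 42.4% with 50% coverage required, 37.9% and 36.6% at equal length, 29.1% and 27.6% with the equal floor and 47.4% and 46.7% with the scaled floor. Merging within 5 kb gave 36.3% on chromosome 8. Among the 19 autosomes, from the lowest, the lost shares of chromosomes 4 and 8 ranked 17 and 15 as listed. With 50% coverage the ranks were 18 and 15, and at equal length and with the equal floor 16 and 15. With the scaled floor they were 15 and 13, and after merging 16 and 17. Shares over all autosomes were not computed for these settings. The part of the gross loss in lost islands was 77.1% and 75.9% with 50% coverage, 57.7% and 57.7% at equal length, 42.5% and 44.7% with the equal floor, 61.3% and 62.7% with the scaled floor and 40.4% and 42.6% after merging. Without the 25% of islands with fewest reads it was 58.8% on chromosome 4. Contracted windows numbered 9 of 83 and 9 of 87 for a fall of at least 2 times, and 8 of 74 and 7 of 79 with the equal floor. All 16 named windows had the same direction with both floors, 10 of 32 values differing by over 1.5 times; they were picked for their size in these lists. The cause of the other changes was not tested. No paired analysis was possible because each day has 1 library, and variation between cultures was not measured.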

Other observations

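Lost islands of chromosomes 4 and 8 lay somewhat farther from the nearest day 5 island, new or shared, than those of other autosomes. The median distance from a lost day 0 island to the nearest day 5 island was 18.6 kb on chromosome 4 and 19.8 kb on chromosome 8, against 13.8 kb on the other 17 autosomes. Within 10 kb of a day 5 island lay 207 of 592 lost islands on chromosome 4 (35.0%) and 168 of 522 on chromosome 8 (32.2%), against 41.9% elsewhere. More than 100 kb away lay 81 and 74 (13.7% and 14.2%), against 10.4%. From a lost island to the nearest other day 0 island the median was 7.2 kb on chromosome 4, 7.8 kb on chromosome 8 and 7.2 kb elsewhere. For shared islands it was 2.4 kb in all 3 sets. These distances were chosen after the lists had been seen, and a chromosome with fewer day 5 islands has longer distances by construction.

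Most falling windows of both chromosomes were in runs. On chromosome 4, 41 of the 67 falling windows were in 10 runs of at least 3, and on chromosome 8, 36 of 58 were in 7 runs. On the other 17 autosomes 276 of 693 (39.8%) were. More falling windows give more and longer runs by construction, so these counts do not show clustering beyond the number of falling windows. Adjacent windows that both had islands and changed had the same sign in 56.0% of 100 pairs on chromosome 4, 61.3% of 93 pairs on chromosome 8 and 59.3% of 1601 pairs elsewhere.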
